A study of Mus musculus with 9 samples.

Results

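The genes described here serve the display of peptides by MHC molecules, and they were followed in αTC1 cells, a glucagon-producing line derived from mouse pancreatic alpha cells. The set holds 10 genes chosen by symbol among the 33212 rows of the deposited count table. They are B2m, the peptide loading genes Tap1, Tap2 and Tapbp, the immunoproteasome genes Psmb8, Psmb9 and Psmb10, the transactivator genes Nlrc5 and Ciita, and Cd74. Each symbol matched 1 row. Poly-A RNA was sequenced from cells kept for 7 days with 4 µM EPZ011989 (4 libraries) or for 7 days with the solvent DMSO (5 libraries), all of the same line with no genetic change stated. EPZ011989 inhibits EZH2, the methyltransferase of the Polycomb repressive complex PRC2, which marks histone H3 at silent genes, and the comparison asks how that inhibition alters expression in alpha-type cells. The labels call the libraries biological replicates but do not say whether each came from its own culture. P-values therefore cover the spread among these 9 libraries, which may be technical.

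MHC class I molecules carry peptides to the cell surface, where T cells read them. Peptides are cut in the cytosol by the proteasome, pumped into the endoplasmic reticulum by the TAP transporter, and loaded onto a class I heavy chain paired with beta-2 microglobulin. Cells exposed to interferon exchange the catalytic proteasome subunits for the immunoproteasome subunits, and pancreatic islet cells are known to raise class I display during autoimmune inflammation. NLRC5 drives transcription of class I genes and CIITA that of class II genes.

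With EPZ011989, B2m, Tap1, Tap2, Psmb8, Psmb9 and Nlrc5 rose, Psmb10 fell, and Tapbp did not pass the test. Ciita and Cd74 were too low to be tested in either group. The rises ran from 2.01-fold for Tap2 to 9.08-fold for Nlrc5, and in each of the 6 genes every EPZ011989 library lay above every DMSO library. Nlrc5, which passed the filter on low counts only through the EPZ011989 libraries, had to differ to be tested, and without it the highest fold was 6.22, for B2m. Calls are those of the edgeR quasi-likelihood test at an adjusted p under 0.05 (Benjamini-Hochberg over 14754 tested genes). Of all tested genes 16.2% were called higher and 7.96% lower, and 16.1% lay higher and 8.77% lower with no overlap between groups. The share called higher was 20.8% among genes with a mean under 1 CPM (counts per 1000000), 33.5% at 1 to 10 CPM, 11.7% at 10 to 100 CPM and 4.56% at 100 CPM or more. The shares called lower in the same order were 0.553%, 3.41%, 10.2% and 15%. The count called lower, 1174 genes, moved with single libraries, to 781 without EPZ011989 replicate 3 and 2377 without replicate 2. It moved to 2729 with a trend with gene length (merged exons) removed. In bulk RNA, more cells carrying a transcript and more of it per cell cannot be told apart.

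**Figure D1:**
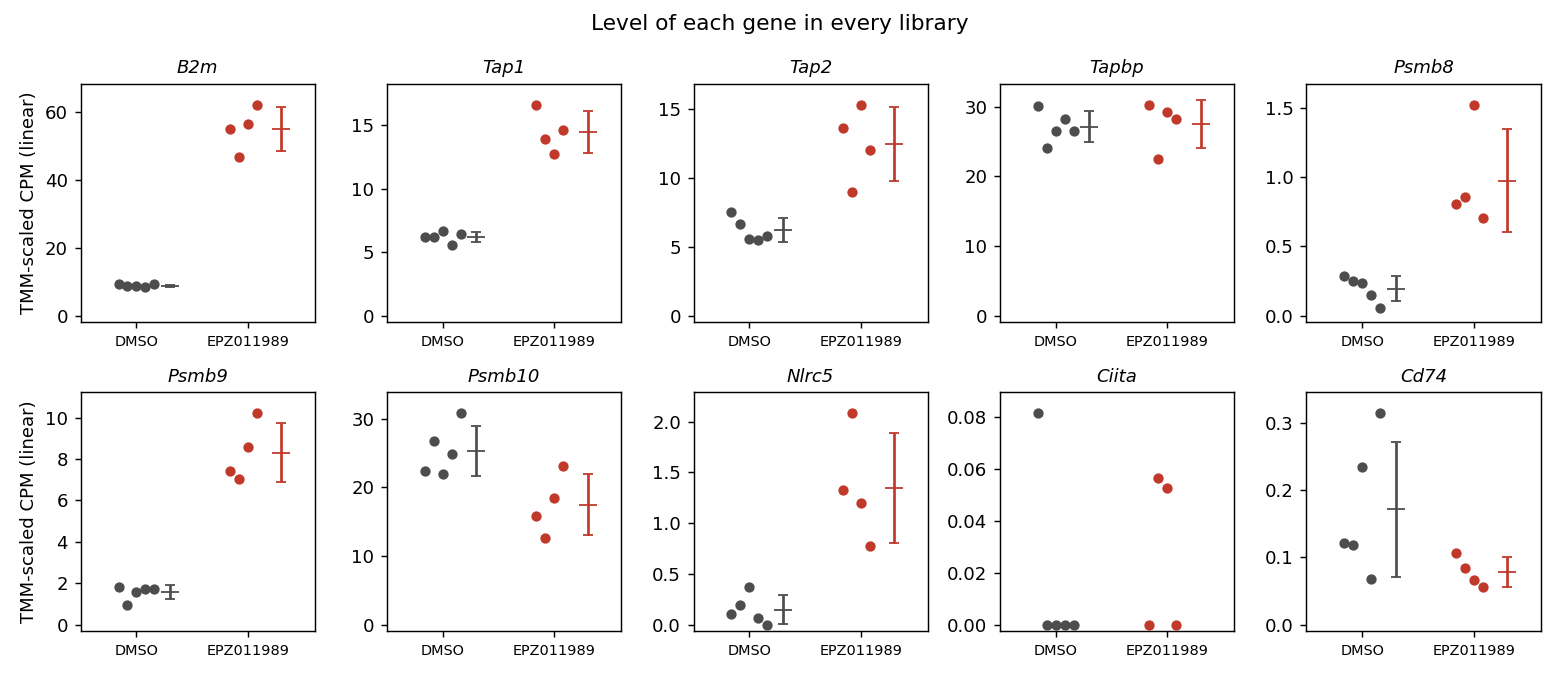
Level of each of the 10 genes in every library, as TMM-scaled CPM on linear axes. Points are libraries in order of replicate number, and the bar beside them is the mean ± SD, left out where the SD exceeds the mean. The groups do not overlap for B2m, Tap1, Tap2, Psmb8, Psmb9 and Nlrc5, while Psmb10 is lower with EPZ011989 with overlapping groups.

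Total counts were 60274140 to 74651782 per library. The groups parted on the first principal component (58.5% of the variance), and EPZ011989 replicates 2 and 4 lay at the ends of the second (24.4%). Ezh2, the gene of the drug's target, whose RNA level does not report the enzyme's activity, was at 199 ± 5 and 209 ± 7 CPM (adjusted p = 0.407, edgeR). Gcg, which encodes glucagon, was at 19300 ± 804 and 18600 ± 2340 CPM (adjusted p = 0.778, edgeR), and none of 12 alpha cell markers was at 0 in all libraries. Gc, one of them, was nearly absent, at 0.201 and 0.25 CPM. Of 23 leukocyte markers 6 had a count of 0 in all libraries, among them Tyrobp and Spi1, and Ptprc, which encodes the pan-leukocyte protein CD45, was at 0 in DMSO and at 0.014 CPM with EPZ011989. The summed level of the 23 was nevertheless higher, at 4.58 to 6.67 CPM in DMSO and 15.6 to 20.1 CPM with EPZ011989. Coro1a (2.40 to 9.32 CPM) and Lyz2 (0.289 to 3.76 CPM) rose, and without both of them the sums were 2.71 to 3.69 and 4.36 to 5.09 CPM. Summed fibroblast markers (9 genes) were at 7.31 to 10.2 and 32.7 to 43.8 CPM, and endothelial markers (8 genes) at 0.374 to 1.16 and 2.09 to 3.41 CPM. Most of the fibroblast sums was Pdgfra, at means of 7.29 and 27.6 CPM. Col3a1, Dcn and Lum were at 0 in DMSO and at means of 0.162, 0.0265 and 0.0165 CPM with EPZ011989. Of 6 tested fibroblast markers 5 were called higher, Pdgfra among them. Others were Thy1 (means of 0 and 3.28 CPM), Vim (0.0919 and 2.10 CPM) and Col1a1 (0.128 and 1.15 CPM). Thy1, Vim and Col1a1 passed the filter on low counts only through the EPZ011989 libraries and had to be higher there to be tested. Of the 6, 3 had a mean under 1 CPM and 2 one of 1 to 10 CPM. At these levels 20.8% and 33.5% of all tested genes were called higher. The part of these markers in the results below was not tested.

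The promoter sequence of B2m is given first because B2m had the smallest adjusted p of the set and its start region holds the letters of several elements known to act on class I genes. RefSeq windows (GRCm38.p6) of 250 bases before to 50 after the start were matched by symbol for 6 of the 10 genes: B2m, Tap1, Tapbp, Psmb8, Psmb9 and Psmb10. They were searched on both strands for the interferon-stimulated response element GAAANNGAAA (in 3.44% of all 32851 windows), the GAS element TTCNNNGAA (8.3%), the kappaB site GGGNNTTTCC (1.63%), the CRE core TGACG (20.8%) and the CCAAT box (37.4%). The 249 bases upstream of B2m (chr2:122147437-122147685, plus strand) are shown with the response element and, to its right, the kappaB site in capitals.

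B2m: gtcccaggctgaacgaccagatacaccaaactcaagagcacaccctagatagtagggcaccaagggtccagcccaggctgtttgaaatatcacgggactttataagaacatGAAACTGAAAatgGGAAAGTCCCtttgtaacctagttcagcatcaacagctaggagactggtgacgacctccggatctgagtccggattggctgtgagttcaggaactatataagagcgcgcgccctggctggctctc

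With the first base of the gene at 0, the response element of B2m begins at -139, the kappaB site at -126, a CRE core at -78 and an inverted CCAAT box at -53. The response element and the kappaB site do not overlap and matched in the window of no other of the 6 genes. Tap1 and Psmb9 are transcribed away from each other, with RefSeq starts 226 bases apart, so that their windows share most of their bases. In that shared stretch lie 1 CRE core and 1 CCAAT box. The CRE core is shown with its flanks in the direction of Tap1 (chr17:34187458-34187486, plus strand), and the GAS element of Psmb8, a sequence that reads as a match on both strands, likewise (chr17:34198088-34198116, plus strand). Capitals mark the 5 bases of the CRE core and the 9 of the GAS element.

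Tap1 and Psmb9: cccagagacaggTGACGacagagggtcct
Psmb8: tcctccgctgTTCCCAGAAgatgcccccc

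Tapbp held 2 inverted CCAAT boxes and the window of Psmb10 none of the 5 motifs. The windows of the 4 genes that rose and had one held 11 to 17 CpG dinucleotides (B2m 14, Tap1 15, Psmb8 11, Psmb9 17), that of Tapbp 11 and that of Psmb10 3, beside a median of 7 over all windows. The constitutive subunit genes Psmb5 and Psmb6, which did not pass the test, had 20 and 15. A match is a description of letters in these windows, not a measured binding site.

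B2m, the light chain that every classical class I molecule needs to reach the surface, lies on chromosome 2 (122147686 to 122153083, GRCm38). Its level in DMSO replicates 1 to 5 was 9.20, 8.69, 8.65, 8.41 and 9.19 CPM, and in EPZ011989 replicates 1 to 4 it was 54.9, 46.5, 56.2 and 62.0 CPM. The DMSO libraries differed by a coefficient of variation of 3.99%, and the lowest EPZ011989 library was 5.06 times the highest DMSO library. The log2 fold change was 2.64 ± 0.09 (SE, adjusted p = 8.52e-08, edgeR). This rise ranked 31 among the 10310 tested genes whose mean reached 5 CPM. Per kilobase of its principal transcript, B2m went from 10.3 ± 0.4 to 63.8 ± 7.4 CPM per kilobase (SD, n = 5 and 4), from the 56.4th to the 91.3rd percentile of 14577 tested genes with a known length.

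B2m rose by a larger factor than the summed heavy chains it pairs with. Reads of single heavy chain genes are uncertain, since many of these genes are close copies. Their levels per kilobase were therefore summed over 13 genes, a ratio chosen after the values were seen. B2m stood at 12.3, 10.8, 10.7, 10.5 and 10.1% of that sum in the DMSO libraries and at 32.1, 33.1, 30.2 and 31.9% in the EPZ011989 libraries. The ratio was thus 2.92 times as high with EPZ011989, a description with no test. Of the 15 listed heavy chain genes 8 were called higher and 0 lower (median log2 fold change 1.21 over 13 tested), with H2-D1 at 97.5 ± 6.1 and 225 ± 33 CPM and H2-K1 at 36.4 ± 5.2 and 57.3 ± 10.1 CPM. Single low heavy chain genes had larger log2 fold changes than B2m, namely H2-T3 (3.46), H2-Q6 (2.88) and H2-Q7 (2.70). H2-T3 passed the filter on low counts only through the EPZ011989 libraries and had to be higher there to be tested. Of the 13 tested genes, 4 had a mean under 1 CPM and 5 one of 1 to 10 CPM. At these levels 20.8% and 33.5% of all tested genes were called higher.

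Tap1 and Tap2 encode the subunits of the TAP transporter, which works as a heterodimer. Tap1 (chromosome 17, 34187553 to 34197225) was at 6.22, 6.16, 6.67, 5.57 and 6.40 CPM in the DMSO libraries and at 16.6, 13.9, 12.7 and 14.6 CPM in the EPZ011989 libraries. No library crossed between the groups, and the difference came to 1.22 ± 0.10 on the log2 scale (SE, adjusted p = 1.22e-05, edgeR). Tap2 (34203527 to 34216321) was at 7.55, 6.64, 5.59, 5.49 and 5.77 CPM in DMSO and at 13.6, 8.96, 15.3 and 12 CPM with EPZ011989. Its groups came closer, since EPZ011989 replicate 2 lay only 1.19 times above DMSO replicate 1. Tap2 had a log2 fold change of 1.00 ± 0.16 (SE, adjusted p = 9.56e-04, edgeR). Per kilobase, the levels were 2.10 ± 0.14 for Tap1 and 1.80 ± 0.26 for Tap2 in DMSO, and 4.89 ± 0.56 and 3.62 ± 0.78 CPM per kilobase with EPZ011989.

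Tapbp encodes tapasin, which bridges TAP and the class I heavy chain during loading. It lies on chromosome 17 too (33915899 to 33929292), 252695 bases from Psmb9. Its level was 30.1, 24.1, 26.5, 28.3 and 26.6 CPM in DMSO and 30.3, 22.5, 29.2 and 28.2 CPM with EPZ011989, with overlapping groups. The log2 fold change was 0.03 ± 0.10 (SE, adjusted p = 0.901, edgeR). Its sign turned when any of 4 single libraries was left out or when a trend with gene length was removed. Tapbp at 9.35 and 9.52 CPM per kilobase was above Tap1 and Tap2 on that scale in both groups.

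Of 9 other listed genes of peptide loading and trimming, 1 rose, 1 fell and 7 did not pass. Among the 9, 5 lay at 10 to 100 CPM and 4 at 100 CPM or more. There 11.7% and 4.56% of all tested genes were called higher and 10.2% and 15% lower, so these counts are near the background. Abcb9, a TAP-like transporter of lysosomes, rose from 12.1 ± 0.9 to 15.4 ± 1.5 CPM. Canx, the chaperone that holds newly made heavy chains, fell from 321 ± 10 to 272 ± 24 CPM. The others included Pdia3 and Calr of the loading complex (638 and 595 CPM, and 746 and 785 CPM), the trimming peptidase gene Erap1 (20.8 and 20.95 CPM) and the tapasin-related gene Tapbpl (15.4 and 13.4 CPM, adjusted p = 0.0833).

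Psmb9 and Psmb8 encode inducible catalytic subunits that replace the products of Psmb6 and Psmb5 in the immunoproteasome. Psmb9 (chromosome 17, 34181987 to 34187764) was at 1.80, 0.957, 1.56, 1.74 and 1.73 CPM in DMSO and at 7.42, 7.01, 8.57 and 10.2 CPM with EPZ011989. All EPZ011989 libraries lay at least 3.89 times above the highest DMSO library. The log2 fold change was 2.41 ± 0.20 (SE, adjusted p = 9.56e-06, edgeR). Exons of Psmb9 and Tap1 overlap by 212 bases on opposite strands. The sources used here do not say whether counting used strand, so reads from these bases could belong to either gene. Exons of Tap2, Tapbp, Psmb8, Nlrc5, Ciita and Cd74 also overlap other annotated genes, by 12 to 904 bases.

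Psmb8 (chromosome 17, 34197721 to 34201454) was low in DMSO, at 0.284, 0.25, 0.235, 0.152 and 0.0571 CPM. With EPZ011989 it was at 0.808, 0.858, 1.52 and 0.702 CPM, above all DMSO libraries. For Psmb8 the log2 fold change was 2.30 ± 0.47 (SE, adjusted p = 0.00418, edgeR). Since many fragments add about 4 counts to a gene, the 68 counts of the 5 DMSO libraries stand for roughly 17 fragments and the 287 counts of the EPZ011989 libraries for roughly 72.

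Psmb10 encodes the third inducible subunit, which replaces the product of Psmb7, and went the other way. It lies on chromosome 8 (105935735 to 105938444). In DMSO it was at 22.4, 26.8, 21.9, 24.9 and 30.8 CPM, and with EPZ011989 at 15.8, 12.7, 18.4 and 23.1 CPM. Per kilobase its DMSO level of 19.3 CPM stood above those of Psmb9 (1.15) and Psmb8 (0.12). The groups overlapped through EPZ011989 replicate 4. The log2 fold change was -0.54 ± 0.17 (SE, adjusted p = 0.0366, edgeR). That call was lost with upper-quartile factors (adjusted p = 0.0681, edgeR) and without DMSO replicate 2 (0.0807), 4 (0.0623) or 5 (0.0775) or EPZ011989 replicate 1 (0.100) or 3 (0.0710). It held without EPZ011989 replicates 2 and 4 together (log2 fold change -0.57, adjusted p = 0.0107, edgeR).

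The libraries differed in a trend with gene length, fitted on the merged exons of each gene, and in the EPZ011989 libraries Psmb10 had its order. Fitted shifts of genes 1 kilobase long ran from -0.185 in EPZ011989 replicate 2 over -0.0113 in replicate 1 and 0.0688 in replicate 3 to 0.252 in replicate 4, on the log2 scale. Levels of B2m, Psmb9, Psmb5, Psmb6 and Psmb7 had that order there too, all with principal transcripts of 798 to 1352 bases. The other 7 of these 13 genes, with principal transcripts of 1410 bases or more, had other orders. On the merged exon length, which the trend used, the 13 genes did not split in this way. Psmb9 (3660 bases) and Psmb7 (3421 bases) had the order, while Psmb8 (3381 bases) and Cd74 (1679 bases) did not. In DMSO the shifts ran from -0.159 in replicate 1 to 0.110 in replicate 5, where Psmb10 was highest, but Psmb10 was lowest in replicate 3. None of the 13 genes had the full order of the shifts in DMSO. With the trend removed, an alternative chosen after seeing the data, Psmb10 had a log2 fold change of -0.62 (adjusted p = 0.00103, edgeR) and B2m one of 2.57.

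**Figure D2:**
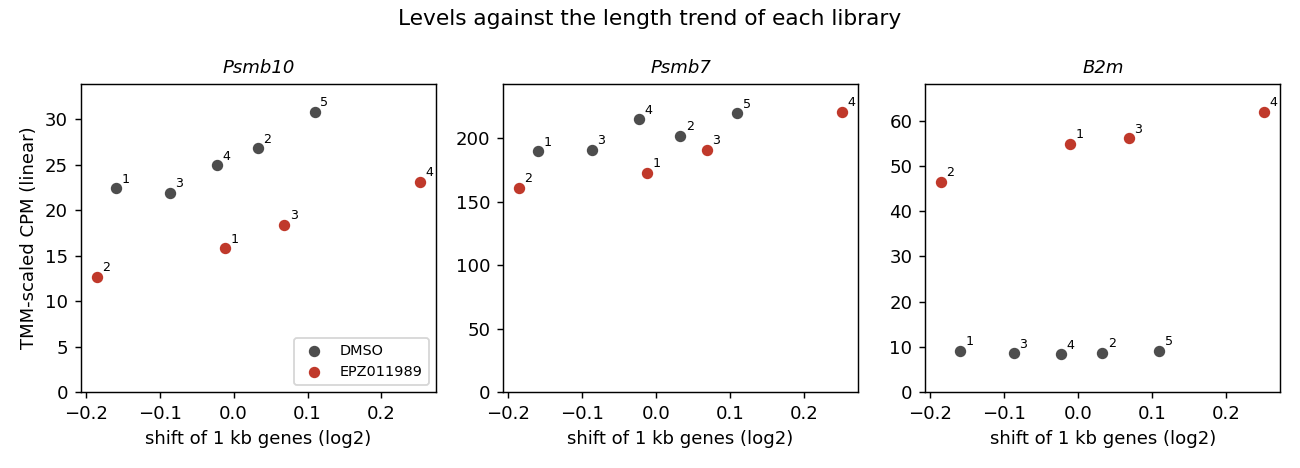
TMM-scaled CPM of Psmb10, Psmb7 and B2m (vertical, linear) against the fitted shift of 1 kilobase genes in each library (horizontal, log2), with the replicate number beside each point. At like shifts, Psmb10 points of EPZ011989 lie below those of DMSO, and B2m points lie far above.

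The constitutive counterparts did not pass the test. In DMSO and EPZ011989 libraries, Psmb5 was at 52.3 ± 5.8 and 47.1 ± 8.3 CPM, Psmb6 at 60.9 ± 8.7 and 63.6 ± 15.2 CPM, and Psmb7 at 203 ± 14 and 187 ± 26 CPM. Their adjusted p-values were 0.450, 0.835 and 0.400 (edgeR). The ratio of each inducible subunit to its counterpart, per kilobase and within a library, needs no scaling between libraries. All 3 ratios separated the groups without overlap.

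Psmb8 stood at 0.336, 0.231, 0.275, 0.165 and 0.0555% of Psmb5 in DMSO and at 0.988, 1.31, 1.61 and 0.707% with EPZ011989. Psmb9 stood at 2.22, 0.881, 1.62, 1.57 and 1.46% of Psmb6 in DMSO and at 7.87, 8.72, 7.28 and 7.34% with EPZ011989. Psmb10 stood at 10.5, 11.8, 10.2, 10.3 and 12.4% of Psmb7 in DMSO and at 8.06, 6.96, 8.51 and 9.24% with EPZ011989. The mean log2 ratios thus shifted by 2.60, 2.39 and -0.43. Each shift had an exact two-sided permutation p = 0.0159, the smallest that 5 against 4 libraries allow, and Benjamini-Hochberg adjustment over the 3 ratios left all at 0.0159. With 0.5 CPM added to both levels, the shift of the Psmb8 ratio was 1.22, since Psmb8 itself is below that level in DMSO. Every ratio stayed below 13% in either group, so transcripts of the constitutive subunits remained the more abundant of each pair.

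**Figure D3:**
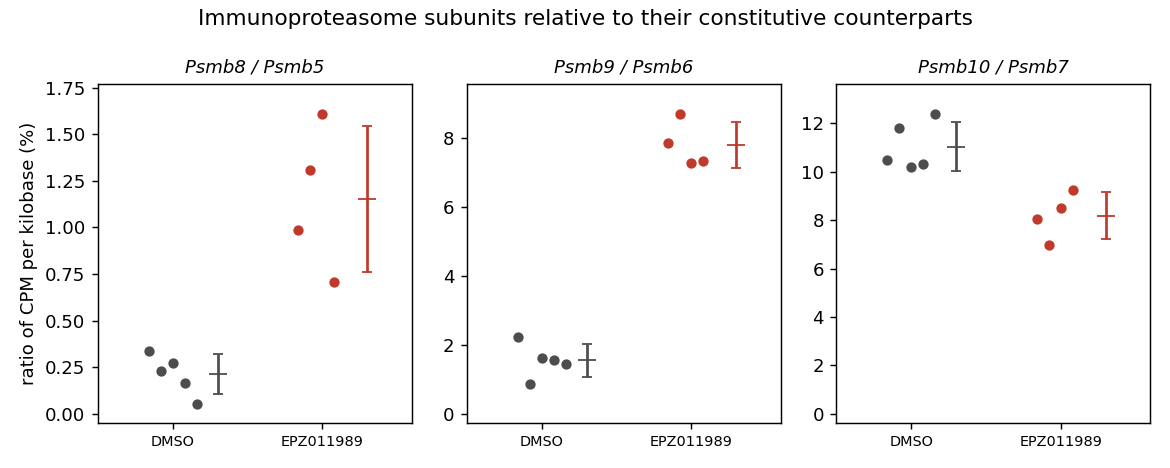
Ratio of each inducible proteasome subunit to its constitutive counterpart in every library, as percent of CPM per kilobase on linear axes from 0. Points are libraries and bars the mean ± SD. Psmb8 and Psmb9 ratios are higher and the Psmb10 ratio is lower with EPZ011989, with no overlap in any panel.

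By edgeR, of 11 other core subunit genes 0 rose and 1 fell, Psma1, from 308 ± 21 to 258 ± 15 CPM. Of 17 regulatory particle genes 0 rose and 1 fell, Psmd6, from 73.1 ± 3.8 to 62.3 ± 5.3 CPM. No gene of either list rose by DESeq2 or limma-voom (0 and 0), and at an unadjusted p under 0.05 the count of rises was 0 as well. Falls by DESeq2, by limma-voom and at an unadjusted p under 0.05 were 1, 1 and 1 in the core list. In the regulatory list they were 2, 1 and 2. All 11 core and 14 of 17 regulatory genes lay at 100 CPM or more. There 4.56% of all tested genes were called higher and 15% lower, so these counts of rises are near the background. The median log2 fold changes of the core and regulatory lists were -0.04 and -0.0044, beside 0.03 over all tested genes. Of 11 listed activator and assembly genes 0 rose and 1 fell, Psme3, which encodes the nuclear activator PA28 gamma, from 266 ± 6 to 216 ± 9 CPM. The counts of rises by DESeq2, by limma-voom and at an unadjusted p under 0.05 were 0 there too, and the counts of falls were 2, 2 and 2. Of the 9 tested, 6 lay at 10 to 100 CPM. There 11.7% of all tested genes were called higher and 10.2% lower, so these counts of rises are also near the background. The products of Psme1 and Psme2 form the interferon-inducible activator PA28. Psme1 was at 27.4 and 24 CPM (adjusted p = 0.533, edgeR). Psme2 was at 31.4 and 23.1 CPM (adjusted p = 0.0599, unadjusted p = 0.0155, edgeR).

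Nlrc5 (chromosome 8, 94434356 to 94527272), the class I transactivator, had 8, 13, 27, 4 and 0 counts in the DMSO libraries and 100, 148, 91 and 55 counts in the EPZ011989 libraries. As CPM these are 0.108, 0.191, 0.374, 0.0675 and 0 against 1.33, 2.08, 1.20 and 0.772. The lowest EPZ011989 library was 2.07 times the highest DMSO library, and the log2 fold change was 3.16 ± 0.72 (SE, adjusted p = 0.00815, edgeR). The DMSO level rests on 52 counts, or roughly 13 fragments. Nlrc5 passed the filter on low counts only through the EPZ011989 libraries, because 2 of 5 DMSO libraries reached its minimum where 4 libraries were needed. At 0.177 CPM per kilobase with EPZ011989 it was at the 7.35th percentile of tested genes.

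Ciita, the class II transactivator, had 6, 0, 0, 0 and 0 counts in DMSO and 0, 4, 4 and 0 with EPZ011989, below the 12 counts (3 fragments) that a library with a count of 0 would allow. Cd74, the invariant chain that guards the class II groove, had 9, 8, 17, 4 and 22 counts in DMSO and 8, 6, 5 and 4 with EPZ011989. With no filter, Cd74 had a log2 fold change of -1.13 (adjusted p = 0.331, edgeR) and Ciita one of 0.65 (0.858). A small change in either was not detectable at this depth. A rise as large as that of H2-DMb1, called higher with 6 counts in DMSO and 348 with EPZ011989, was not seen in either.

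Class II genes were nevertheless among those that rose. Of 12 listed class II and accessory genes 6 were called higher, 0 lower, 1 did not pass and 5 were too low to test. H2-Eb2, H2-DMb1, H2-Ab1 and H2-Eb1 passed the filter on low counts only through the EPZ011989 libraries. These genes had to be higher there to be tested. Of the 7 tested, 4 had a mean under 1 CPM and 2 one of 1 to 10 CPM. At these levels 20.8% and 33.5% of all tested genes were called higher. H2-DMa, a subunit of the peptide exchange factor, rose from 0.977 ± 0.314 to 3.84 ± 1.15 CPM. H2-Eb2, a beta chain gene, had 3 counts in all DMSO libraries together and 447 in the EPZ011989 libraries, and H2-DMb1 had 6 and 348. H2-Ab1 rose from 0.0688 ± 0.0734 to 0.771 ± 0.088 CPM. Its partner H2-Aa, below the filter and not tested, was at 0 in DMSO and at 0.0923 to 0.549 CPM with EPZ011989. No library had more than 0.314 CPM of Cd74 or 0.0812 CPM of Ciita.

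By edgeR, of 7 factors that bind the class I and class II promoter modules (Rfx5, Rfxap, Rfxank, Creb1, Nfya, Nfyb and Nfyc) 0 were called, with log2 fold changes of -0.13 to 0.11. At an unadjusted p under 0.05 the count was again 0, and by DESeq2 and limma-voom it was 0 and 0. All 7 lay at 10 to 100 CPM. There 11.7% of all tested genes were called higher and 10.2% lower, so a count of 0 in 7 genes is near the background. Of 18 genes of interferon receptors, JAK-STAT and IRF factors 5 rose and 0 fell (median log2 fold change 0.14). Among the 18, 13 lay at 10 to 100 CPM, where 11.7% of all tested genes were called higher. Ifngr1, a chain of the interferon gamma receptor, rose from 29.9 ± 1.3 to 41.1 ± 1.2 CPM, Jak1 from 79.9 ± 6.5 to 105 ± 8 CPM and Ifnar1 from 38.9 ± 1.1 to 46.4 ± 3.4 CPM. Irf8, an interferon regulatory factor of blood cells, had 0 counts in DMSO and 0.759 ± 0.341 CPM with EPZ011989. Taking 12 counts for each DMSO library as the floor, it was at least 4.32-fold higher. Irf8 passed the filter on low counts only through the EPZ011989 libraries and had to be higher there to be tested. Irf1, an interferon-induced transcription factor, was at 12.7 ± 0.5 and 13.5 ± 1.5 CPM (adjusted p = 0.588, edgeR).

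Of 7 NF-kappaB genes 1 rose, the feedback inhibitor Tnfaip3, from 2.51 ± 0.40 to 4.36 ± 0.93 CPM. Among the 7, 3 lay at 1 to 10 CPM and 4 at 10 to 100 CPM. There 33.5% and 11.7% of all tested genes were called higher, so this count is near the background. Of 23 listed interferon-stimulated genes 6 rose, 0 fell, 8 did not pass and 9 were too low to test. Of the 14 tested, 7 had a mean under 1 CPM and 6 one of 1 to 10 CPM. At these levels 20.8% and 33.5% of all tested genes were called higher. The 6 that rose were low, among them Xaf1 (0.0118 to 0.301 CPM), Cxcl10 (0.192 to 0.785 CPM), Oas1a (0.0935 to 0.677 CPM) and Bst2 (1.33 to 3.14 CPM). Xaf1 and Oas1a passed the filter on low counts only through the EPZ011989 libraries and had to be higher there to be tested. In the heavy chain, class II, interferon and NF-kappaB lists, 0 genes fell by edgeR, by DESeq2, by limma-voom or at an unadjusted p under 0.05. Few genes of low level fell at all, 0.553% under 1 CPM and 3.41% at 1 to 10 CPM, so for lists of low genes this is near the background. Usp18 was at 10.2 and 9.96 CPM (adjusted p = 0.844) and Ifi35 at 8.59 and 7.49 CPM (adjusted p = 0.382, edgeR).

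**Figure D4:**
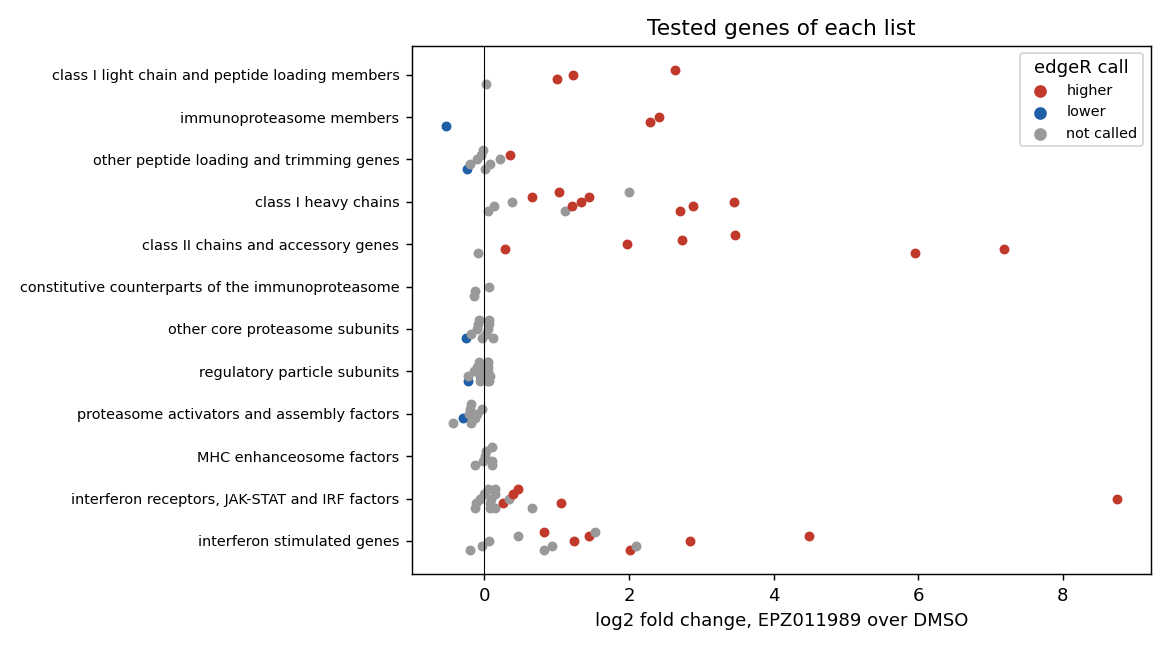
Log2 fold change (EPZ011989 over DMSO) of the tested genes of each list, with 1 point per gene coloured by its edgeR call. Promoter factor and proteasome lists, apart from the immunoproteasome members, sit near 0. Heavy chain, class II and interferon-stimulated lists reach well to the right. The points farthest right, Irf8, H2-Eb2, H2-DMb1 and Xaf1, passed the filter on low counts only through the EPZ011989 libraries.

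By position, 5 of the 10 genes lie in or beside the MHC on chromosome 17. Psmb9, Tap1, Psmb8 and Tap2 form a run of 34335 bases, and 4 of these 4 rose. Within 100 kilobases of Tap2, 8 other genes were tested, of which 7 were called higher: Psmb9, Tap1, Psmb8, H2-Ab1, H2-DMa, H2-DMb1 and H2-Eb1. Of these, Psmb9, Tap1 and Psmb8 belong to the set itself, and H2-Ab1, H2-DMb1 and H2-Eb1 passed the filter only through the EPZ011989 libraries. All 7 had means under 10 CPM. The share of all tested genes called higher was 20.8% under 1 CPM and 33.5% at 1 to 10 CPM. Around Tapbp, 19 others were tested, with 2 higher (H2-K1 and Kifc1) and 1 lower (Wdr46). Around B2m 3 were tested, of which Sord rose and Eif3j1 fell, around Psmb10 2 of 13 rose and 1 fell, and around Nlrc5 1 of 5 rose (Cpne2). Of all tested genes 16.2% were called higher and 7.96% lower, so the counts around Tapbp, Psmb10 and Nlrc5 are near the background. Neighbours of a gene are not independent of it, and these counts are a description.

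**Figure D5:**
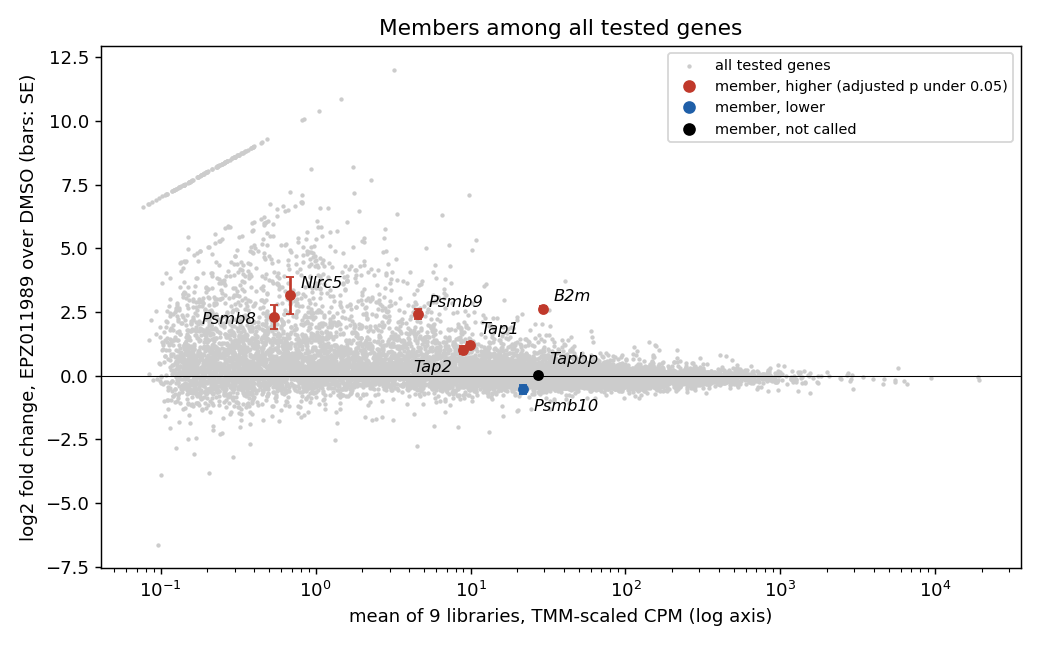
Log2 fold change against mean level (log axis, TMM-scaled CPM) for all tested genes in grey, with the 8 tested members labelled and their SE as bars. B2m lies well above most genes of its level, Tapbp on the zero line and Psmb10 below it.

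Across the 9 libraries, the 5 genes outside the set (mean of at least 5 CPM, 9829 ranked) most like B2m by Pearson correlation of log2(CPM + 1) were Gpc1, Pcp4, Nova2, Cadm4 and Igfbp5, with r of 0.997 to 0.998. The libraries form 2 groups, so r mainly reflects the difference between them. Within the set, r with B2m was 0.987 for Psmb9, 0.981 for Tap1, 0.923 for Tap2, 0.901 for Psmb8, 0.882 for Nlrc5, 0.125 for Tapbp and -0.698 for Psmb10.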

How the data were processed

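The authors deposited whole-number counts per gene for 9 libraries. HISAT2, StringTie, DESeq2 and mm10 are listed, without roles, in the submitters' processing notes. Strand use is not given in those sources. Counts of 4 (3046 values) and 5 (2732) were more frequent than 2 (2108) or 3 (2160), so many fragments appear to add about 4 counts. Intervals and floors (12 counts per library) cover counting error only.

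The count model was edgeR 4.0.16 in R 4.3.3, with its filterByExpr filter, TMM factors and a robust quasi-likelihood F test. All 9 libraries entered, with no term besides treatment, and the fit was checked on simulated data. Standard errors are the log2 fold change, without sign, over the root of F. CPM use TMM-scaled totals, and values are mean ± SD between libraries. Levels per kilobase use the GENCODE M21 principal transcript, while the length trend used the merged exons of each gene. Replicate libraries differed by more than sampling noise (chi-square per degree of freedom of 4.03 or more on counts divided by 4). Members and gene lists were chosen with earlier results of these data known. Named genes were all members, Psmb5, Psmb6, Psmb7, Ezh2, Gcg, up to 4 called genes per list by smallest p, any that fell, and the 5 most like B2m, and genes could be left out. H2-T3, H2-Q6, H2-Q7, Irf1, Usp18, Ifi35, neighbours and other uncalled genes were added after their values were seen. Alternatives were upper-quartile, RLE or no factors, other filters, DESeq2 1.42.0, limma-voom (limma 3.58.1), counts divided by 4, a replicate block, and leaving out libraries. Results for some listed genes are not reported here.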

Additional observations from a re-analysis of the deposited data

Results flagged for a closer look

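In 34 groups of library values examined for a single library far from the others, 2 stood apart, where chance gives about 1 in 20. Psmb9 was at 0.957 CPM in DMSO replicate 2, below the other 4 DMSO libraries at 1.56 to 1.80 CPM. Ciita was at 0.0812 CPM in DMSO replicate 1, a value of 6 counts, with 0 in the other 4.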

How the results depend on the processing

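Under all 20 alternatives (19 for Psmb8 and Nlrc5, which a minimum of 1 CPM in 4 libraries removed), the 6 rises stayed called, with log2 fold changes of 2.56 to 2.70 for B2m, 1.12 to 1.28 for Tap1, 0.89 to 1.22 for Tap2, 2.00 to 2.56 for Psmb8, 2.28 to 2.48 for Psmb9 and 2.81 to 3.87 for Nlrc5. The fall of Psmb10 stayed called in 13 of 20. Upper-quartile factors called 2735 genes higher, 776 lower and 0 members lower, in place of 2388, 1174 and 1. The log2 fold change of Tapbp turned to -0.01 without DMSO replicate 2, -0.0476, -0.0047 and -0.0015 without EPZ011989 replicates 1, 3 and 4 (0.103 without replicate 2), and -0.0573 with the length trend removed, where 2287 genes were higher and 2729 lower. Leaving out 1 library gave 1861 to 2939 genes higher and 781 (without EPZ011989 replicate 3) to 2377 (without replicate 2) lower, and 0 to 1 members lower. For the ratios, leaving out a library or transcript length says nothing of stability, since the groups do not overlap and length is a constant factor within a pair. The cause of these differences was not tested. Same-numbered libraries did not deviate together (r = 0.0704, -0.289, -0.336 and 0.127). With the replicate number as a block, 1550 genes were higher, 471 lower and 0 members lower (Psmb10 -0.49, adjusted p = 0.113, edgeR). Psmb8, Nlrc5, Ciita and Cd74 are limited by depth.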
